A study of Mus musculus with 10 samples.

Results

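The psoas, a hip flexor that lies along the lumbar spine, was compared with 2 muscles of the lower leg, the extensor digitorum longus (EDL) and the soleus, in bulk RNA-seq read counts of 16112 genes. The 3 psoas libraries were set against the 3 EDL and the 4 soleus libraries, with the leg muscles weighted equally, and a gene was kept when it differed from each leg muscle in the same direction. In total, 113 of the 16112 genes (0.701%) met that rule, 19 (0.118%) with higher and 94 (0.583%) with lower counts in psoas. A gene counted as different from a muscle when the edgeR fit gave a fold change over 2 and an adjusted p under 0.01. All mice were wild type and came from a colony of heterozygous B6C3Fe a/a-Ttnmdm/J parents, and no muscle was treated. EDL and psoas came from mice of 42, 54 and 44 days and soleus from mice of 42, 44, 32 and 44 days. The sexes were male, male and female for EDL and for psoas. For soleus they were male, female, not given and female.

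EDL and psoas are fast muscles and soleus is a slow one, so a plain fast against slow difference separates soleus from both of the others. The muscles also differ in place, the psoas at the hip and the other two in the distal limb. Muscles carry a record of their place in the body in the Hox genes, 4 clusters of transcription factors whose members are switched on along the body and limb axes in the order in which they lie on the chromosome. A dissected muscle also holds connective tissue, and tendon can be taken along with the belly.

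The labels name 7 animals, 3 of which gave more than 1 library, and the study's methods state fewer mice, so libraries of different muscles are not all independent. Total counts lay between 12737971 and 50431713 per library. The psoas libraries held 50431713, 21923831 and 13820086 counts. The slow fiber markers separated soleus from the other muscles but overlapped between psoas and EDL, so they do not check those 2 labels against each other: the summed level of 13 slow sarcomere and calcium genes was 22022 to 35278 CPM (counts scaled to a common library size) in soleus against 73.2 to 264 in psoas and 146 to 479 in EDL. Xist lay between 34.4 and 38.2 CPM in the 4 female libraries and at or under 0.0792 in the 5 male ones, and the soleus library without a stated sex had 0. All levels below are CPM after normalization for library composition, fold changes are on the log2 scale as psoas minus the other muscle, and p-values come from the quasi-likelihood test of edgeR, adjusted by Benjamini and Hochberg's method over all 16112 genes.

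Psoas was first compared with each leg muscle by itself. Against EDL, 340 genes (2.11%) differed, 87 higher (0.54%) and 253 lower (1.57%) in psoas. Against soleus, 917 genes (5.69%) differed, 436 higher (2.71%) and 481 lower (2.99%). The order of these totals depended on the fit: it turned with read trimming as a covariate (605 against EDL, 566 against soleus), and without EDL 3 the totals were 963 and 964. Against the mean of the leg muscles, 592 genes (3.67%) differed, 293 (1.82%) higher and 299 (1.86%) lower. Most of the 293 genes above the leg mean rested on soleus: 240 passed against soleus alone, 15 against EDL alone, 19 against neither and 19 against each. The 299 genes below the leg mean were spread more evenly, with 99 that passed against soleus alone, 88 against EDL alone, 18 against neither and 94 against each. Across all genes the median log2 difference from the leg mean was −0.00.

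**Figure D1:**
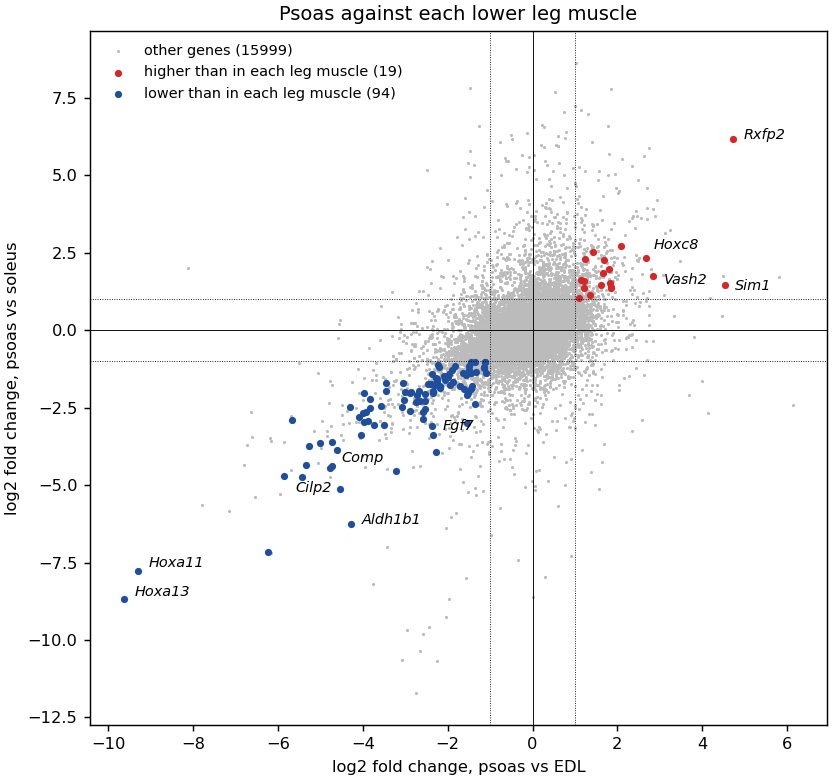
Log2 fold change of psoas against EDL (x axis) and against soleus (y axis) for 16112 genes; red points are the 19 genes higher and blue points the 94 genes lower in psoas than in each leg muscle, grey points the other 15999 genes, and dotted lines mark a fold change of 2. The blue points run down the diagonal toward Hoxa11 and Hoxa13, whose exact place depends on the prior count because no psoas read was counted, while Sim1 stands far to the right at a small height.

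Some of the 113 genes also differed between the leg muscles. In the comparison of soleus with EDL, in which 929 genes (5.77%) were called, 3.59% higher and 2.18% lower in soleus, 11 of the 113 (9.73%) were called. Of the 19 higher genes, Sim1 was also higher in soleus than in EDL and Slc38a4 lower. Of the 94 lower genes, 2 were higher and 7 lower in soleus than in EDL. The median log2 difference from the leg mean was 1.74 for the 19 and −2.39 for the 94, or −2.35 with genes lacking psoas reads set at their bound. The smaller of the 2 fold changes exceeded 2 on the log2 scale in 3 of the 19 and 45 of the 94. In all 113 genes the 3 psoas libraries lay outside the range of the 7 leg libraries, which follows largely from the rule itself. Over all genes this held for 1645 (10.2%), 4.61% above and 5.6% below. At the edge of the rule, Tirap passed with an adjusted p of 0.0095 and Pfkp with 0.0097, whereas Asb15 at 0.011 and Fam3c at 0.011 stayed just outside.

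The number of genes and its split depended strongly on the tool and on single libraries. DESeq2 gave 122 higher and 217 lower, limma-voom 37 higher and 51 lower with 68 of the 113 shared, and limma-voom with the animal as a random effect 46 higher and 75 lower. With read trimming as a covariate there were 31 higher and 78 lower genes. Without 1 EDL library it was 38, 44 and 183 for replicates 1, 2 and 3, the last with 79 higher and 104 lower. Without 1 psoas library it was 34, 26 and 46. Without 1 soleus library it was 72, 68, 159 and 60 for replicates 1 to 4. In all 10 of these fits the same 18 of the 113 genes passed. The only higher one was Sim1, whose call was lost with read trimming as a covariate (larger adjusted p = 0.017). Its call was also lost with the handling groups defined in the methods below and in the test against a fold change of 2. The 17 lower ones were Hoxa13, Hoxa11, Comp, Chad, Nrn1, Cilp, Itgbl1, Angptl7, Calhm5, Dio2, Vit, Tigd4, Emp1, Pygb, Ccn3, Ugdh and Gpx8. These names follow from their values, and the other 95 genes each lost their call without at least 1 library.

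**Figure D2:**
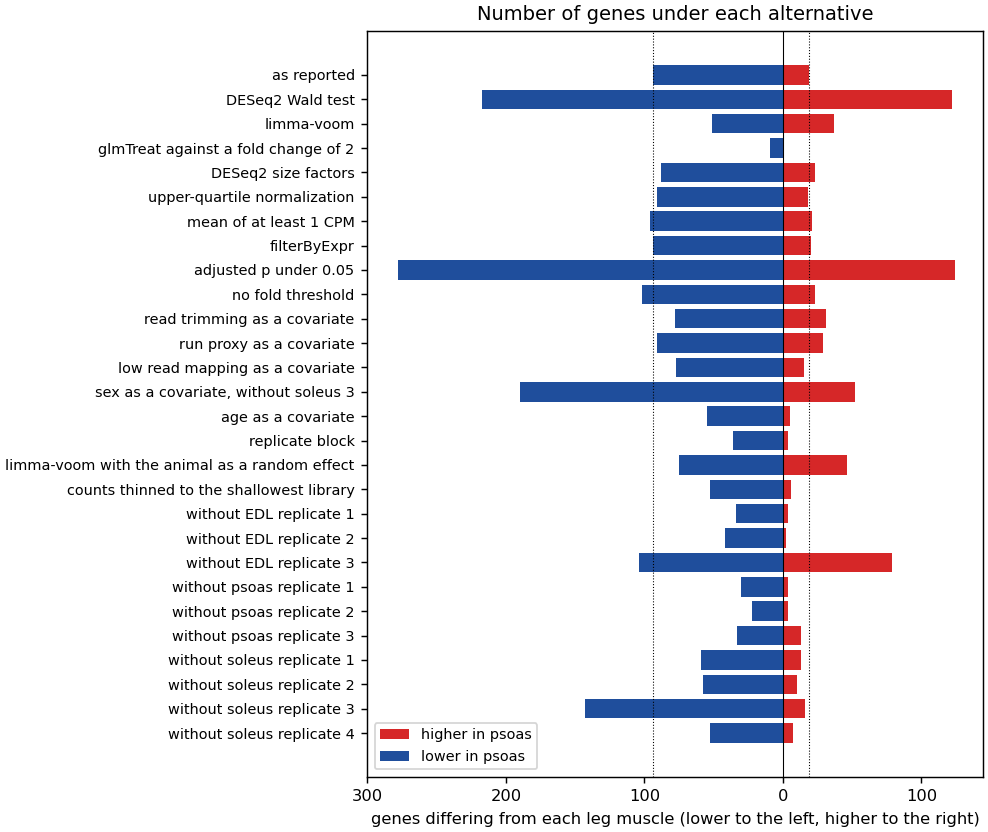
Number of genes (x axis) differing from each leg muscle in the same direction under each alternative processing or without each library (rows), with genes higher in psoas in red to the right of 0 and lower in blue to the left; dotted lines mark the reported 19 and 94. Every row has more blue than red, and the totals run from 9 to 402.

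The Hox genes included members without any psoas read as well as a member that was higher in psoas. Of 39 Hox genes listed, 19 were measured. One, Hoxc8, was higher in psoas than in each leg muscle, beside 0.118% of all genes. Another 2, Hoxa11 and Hoxa13, were lower, beside 0.583% of all genes. The median log2 difference of the 19 from the leg mean was −0.11 beside −0.00 over all genes. Hoxa13 (chr6:52257694-52260880, minus strand, GRCm38), needed for the most distal part of the limb, had 3.04, 4.20 and 4.17 CPM in EDL and 1.44, 1.67, 3.99 and 0.95 in soleus. No read of it was counted in any psoas library. With a floor of 3 counts per library, psoas was at least 23.7-fold lower than EDL and at least 12.5-fold lower than soleus (adjusted p = 0.0015 and 0.00084). Hoxa11 (chr6:52242106-52245810, minus strand), a gene of the middle limb segment, showed the same absence.

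Its level was 2.29, 2.75 and 4.06 CPM in EDL, 0 in the 3 psoas libraries and 1.3, 0.927, 1.36 and 0.633 in soleus. Psoas was thus at least 18.9-fold lower than EDL and at least 6.56-fold lower than soleus (adjusted p = 0.00083 and 0.00049). The antisense transcript Hoxa11os, which overlaps Hoxa11, was also at 0 in psoas, at 0.886 to 1.43 CPM in EDL and at 0 to 0.399 in soleus, and the sources used here do not give whether reads were counted by strand. Hotair, a long noncoding RNA of the HoxC cluster, was the other member without psoas reads. It had 0.275 to 0.420 CPM in EDL and 0.558 to 0.867 in soleus, so that psoas was at least 2.19-fold and at least 4.16-fold lower. In all 3 genes the 7 leg libraries had reads and the 3 psoas libraries had none. They are among 9 of the 94 lower members that had no psoas library at 10 counts and so entered the table through the leg libraries alone. The calls of these 9 are given as a description.

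Hoxc8 (chr15:102990607-102994111, plus strand), a trunk-level member of the HoxC cluster, went the other way. It had 2.37, 1.46 and 1.91 CPM in psoas, 0.350, 0.339 and 0.165 in EDL, and 0.479, 0.538, 0.239 and 0.211 in soleus. The log2 fold change was 2.67 ± 0.45 (SE; adjusted p = 0.0061) against EDL and 2.33 ± 0.42 (adjusted p = 0.0035) against soleus. The call was lost in 7 of 10 fits that left out a library: without EDL 1 or 2, any psoas library, or soleus 1 or 4. It was also lost with read trimming (larger adjusted p = 0.025), low read mapping, age, or sex without soleus 3 as covariates and with thinned counts. The handling groups defined in the methods below gave a larger adjusted p of 0.062. A replicate block and the test against a fold change of 2 lost the call as well. Its neighbours Hoxc4, Hoxc5 and Hoxc6 also had all psoas libraries above all leg libraries but did not meet the rule. All psoas libraries lay above all leg libraries in 4 of the 19 Hox genes (4.61% of all genes) and below them in 3 (5.6%). Hoxc6 had 2.41 to 4.38 CPM in psoas against 0.159 to 1.17 in the leg muscles (adjusted p = 0.016 against EDL and 0.0070 against soleus). Hoxc11, at the posterior end of the same cluster, lay at 0.0708 to 0.761 CPM in psoas below 1.21 to 2.33 in the leg muscles (adjusted p = 0.049 and 0.0061). Transcripts of neighbouring Hox genes can share exons, so the split of reads among them is uncertain.

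**Figure D3:**
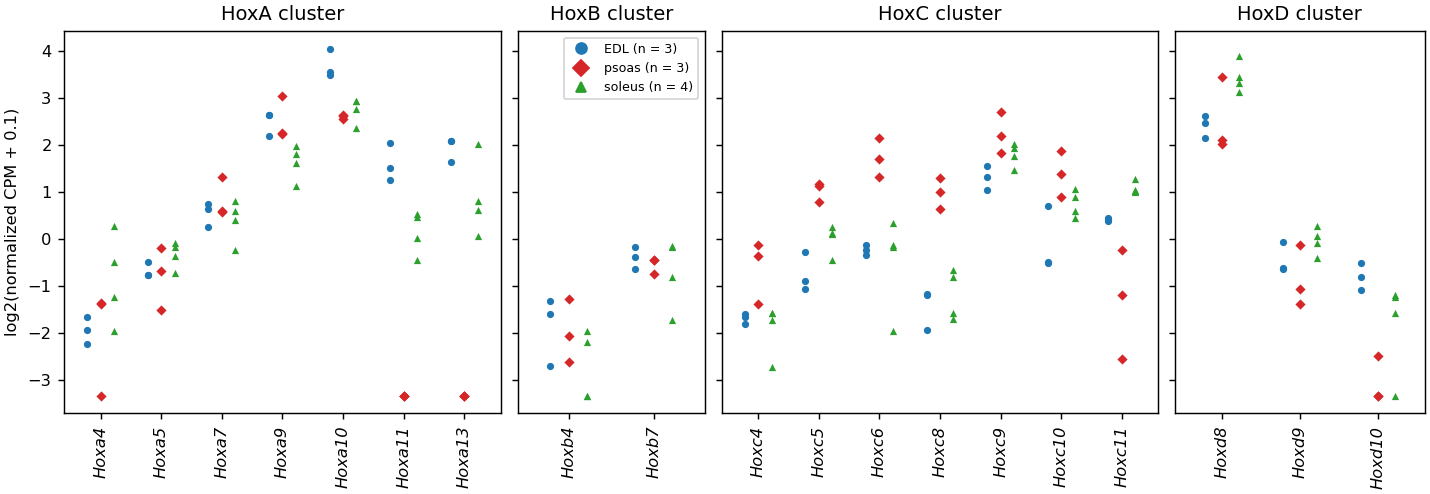
Level of the 19 measured Hox genes in each library as log2(normalized CPM + 0.1) on the y axis, grouped by cluster and ordered by paralogue group on the x axis; circles are EDL (n = 3), diamonds psoas (n = 3) and triangles soleus (n = 4). Psoas diamonds lie above the other points from Hoxc4 to Hoxc8 and at the bottom, which is 0 CPM, for Hoxa11 and Hoxa13.

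Summed per kilobase of transcript, the HoxC genes came to 6.47 ± 1.80 (SD, n = 3) CPM per kb in psoas, 2.75 ± 0.405 (n = 3) in EDL and 4.08 ± 0.682 (n = 4) in soleus. The HoxA sum was lowest in psoas, at 3.89 ± 0.725 against 8.77 ± 1.51 in EDL and 5.06 ± 1.26 in soleus. These cluster sums were not tested. The share of paralogue groups 9 to 13, the posterior groups, in the Hox total per kb was 47.6, 53.8 and 49.5% in psoas, 67.4, 72.0 and 77.3% in EDL, and 56.4, 59.2, 52.1 and 50.7% in soleus. Psoas and EDL did not overlap and psoas and soleus did. EDL and soleus did not overlap either, and the test over all leg libraries treats these 7 as 1 group. Psoas was 11.9 percentage points below the mean of the 7 leg libraries (13.1 with the leg muscles weighted equally), and the 11.9 did not pass an exact permutation test over the 3 psoas and 7 leg libraries (two-sided p = 0.067, smallest possible 0.017; 0.15 adjusted over 3 comparisons). The unadjusted p of this test was 0.048 without soleus 3 or without soleus 4, and 0.017 for paralogue groups 10 to 13. Groups 9 to 13 and groups 10 to 13 both hold Hoxa11 and Hoxa13, which the rule picked from these same libraries. None of these p-values is therefore independent of that choice. The unadjusted p was 0.22 without psoas 1, 0.056 without psoas 2, 0.17 without psoas 3 and 0.15 without division by gene length. Leaving out EDL 1, 2 or 3 or soleus 1 or 2 gave 0.095 each time. Against EDL alone p was 0.10, the smallest that 3 against 3 libraries can give, and against soleus alone 0.23 (smallest possible 0.057).

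Among 36 measured position factors outside the Hox clusters, 1 met the rule, Sim1, which was higher in psoas, beside 0.118% of all genes. Sim1 (chr10:50894754-50989152, plus strand), a transcription factor known from the hypothalamus and from migrating muscle precursors, had 32.2, 21.5 and 19.2 CPM in psoas. It had 0.864, 1.17 and 1.15 CPM in EDL and 11.1, 6.73, 9.33 and 8.50 in soleus. The muscles formed 3 separate levels, with psoas on top. Psoas was 22.9-fold above EDL (log2 4.52 ± 0.28, adjusted p = 5.2e-05) and 2.73-fold above soleus (log2 1.46 ± 0.22, adjusted p = 0.0014). The call was lost with read trimming or the handling groups as covariates and in the test against a fold change of 2. Soleus was itself above EDL (log2 3.07, adjusted p = 7.0e-05). Its relative Sim2 placed psoas in the middle, with 1.06, 0.507 and 1.27 CPM against at most 0.0234 in EDL and 3.51 to 6.94 in soleus (adjusted p = 0.0014 and 0.0025).

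The hindlimb genes Tbx4 and Pitx1 did not pass against either muscle. Tbx4 had 0.422 to 0.779 CPM in psoas, 0.358 to 0.494 in EDL and 0.797 to 1.62 in soleus (adjusted p = 0.45 and 0.089). Pitx1 had 0.425 to 1.08 CPM in psoas, 0.117 to 0.439 in EDL and 0 to 0.209 in soleus (adjusted p = 0.13 and 0.025). Neither gene exceeded 1.62 CPM in any of the 10 libraries.

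Apart from Hoxc8 and Sim1, 12 of the genes higher in psoas were named by their size of change. Rxfp2 (chr5:150018675-150082184, plus strand), the receptor for insulin-like peptide 3, was nearly confined to psoas in these libraries. It had 1.08, 0.951 and 1.77 CPM there, 0.0934, 0.0188 and 0 in EDL, and a single read in the 4 soleus libraries together. The 81 psoas reads against 5 EDL reads gave a ratio of 27.3 with a 95% counting interval of 11.2 to 86.2, and the ratio to the 1 soleus read was 95 (16.6 to 3799). These intervals cover counting error only. Rxfp2 was the 1 higher member with no leg library at 10 counts, so it entered the table only through psoas and its call is given as a description. That call was lost without EDL 1 or 2, any psoas library, or soleus 4.

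Smtnl2, a smoothelin-like gene, had the highest mean psoas level of the named genes that were higher in psoas. It had 167, 130 and 137 CPM in psoas, 31.8, 50.6 and 52.8 in EDL and 33.9, 34.6, 23.9 and 29.0 in soleus. That was 3.21-fold above EDL (log2 1.68 ± 0.23, adjusted p = 0.0027) and 4.76-fold above soleus (log2 2.25 ± 0.21, adjusted p = 0.00010), a call lost without psoas 1 and kept without any other library. Slc38a4, an amino acid transporter, reached 146, 167 and 97.7 CPM in psoas beside 53.8 to 61.3 in EDL and 21.1 to 33.7 in soleus. Here the leg muscles also differed, and the order was psoas, EDL, soleus. Kmt5a, which adds a single methyl group to histone H4, had 43.4 to 46.7 CPM in psoas and 6.84 to 17.2 across the leg libraries.

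Fhod1, a formin that assembles actin filaments, had 5.31 to 8.07 CPM in psoas against 1.32 to 2.26 in the leg muscles. Golm1, a Golgi membrane protein, had 24.1 to 33.6 against 5.50 to 10.3. Both genes overlap a measured gene on the other strand, Tmem208 and Naa35, and neither partner was called. Tirap, an adaptor of Toll-like receptor signalling, had 27.4 to 31.9 CPM in psoas against 3.11 to 14.7. Its exons overlap those of Srpr, but the 2 genes share only the stretch chr9:35200175-35200291 at their ends. Srpr was also highest in psoas, at 82.0 to 97.7 CPM against 21.1 to 59.8. Only reads within the shared stretch cannot be told apart without the strand setting.

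Vash2, a tubulin carboxypeptidase, had 2.54 to 3.75 CPM in psoas, 0.220 to 0.677 in EDL and 0.718 to 1.37 in soleus. Tdrp had 8.31 to 15.6 CPM in psoas and 1.27 to 3.08 across the leg libraries. Pde4a, which breaks down cyclic AMP, had 15.2 to 23.5 against 3.50 to 8.64. The kinase gene Wnk2 and the Fanconi anemia gene Faap100 completed the 14, with 9.21 to 14.2 and 7.36 to 10.2 CPM in psoas. Across the 14 the larger of the 2 adjusted p-values lay between 0.0014 and 0.0095, and each gene except Sim1 lost its call without 1 to 9 of the 10 libraries in turn.

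The remaining 5 higher genes, listed after their values were seen, were Exoc7, Kcnj12, Osbpl6, Adi1 and Ank1. Kcnj12, an inward rectifier potassium channel of muscle, had 41.0, 36.8 and 29.5 CPM in psoas against 14.3 to 16.7 in EDL and 9.65 to 16.5 in soleus. Ank1, whose short muscle form links the sarcoplasmic reticulum to the contractile apparatus, had 43.4, 35.8 and 47.5 CPM against 15.9 to 26.1 and 19.8 to 22.2. These 2 muscle genes were raised over both leg muscles by log2 values of 1.03 to 1.58.

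**Figure D4:**
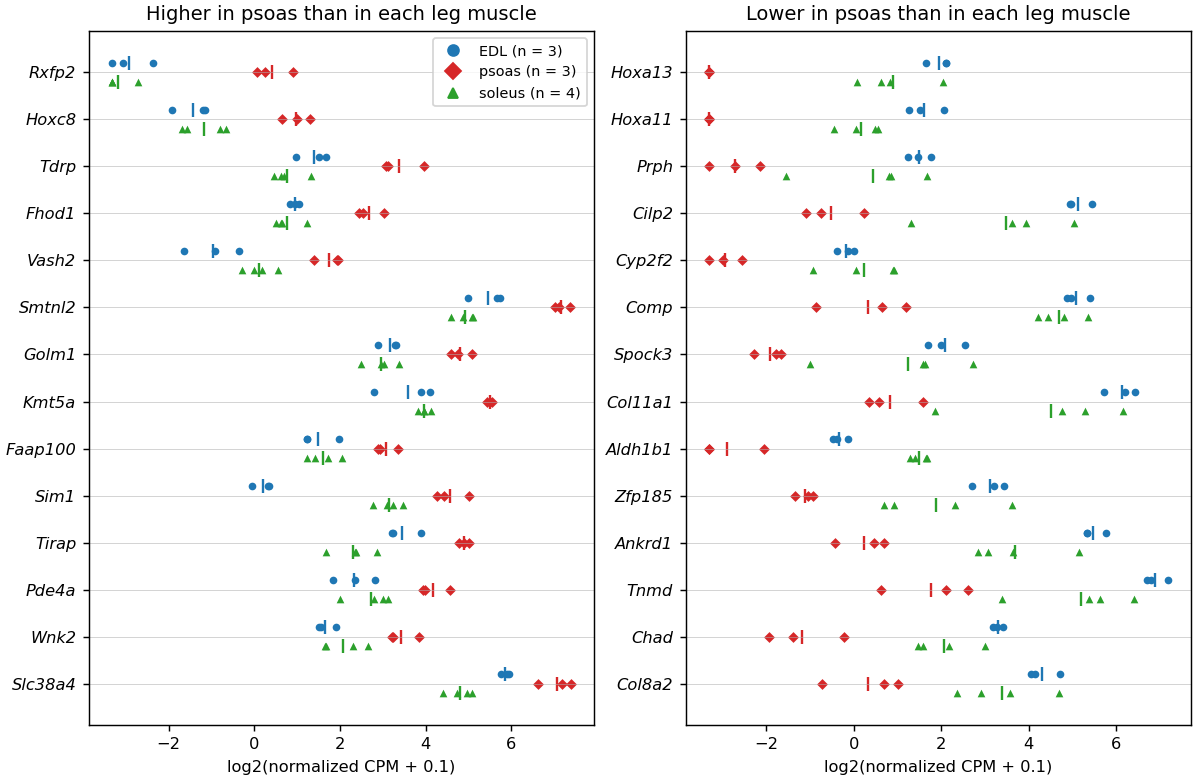
Level in each library as log2(normalized CPM + 0.1) on the x axis for 14 named genes higher (left) and 14 lower (right) in psoas; circles are EDL (n = 3), diamonds psoas (n = 3), triangles soleus (n = 4) and vertical ticks the mean of the log2 values. Non-overlap of psoas and leg libraries was a condition for naming these 28 genes, and the leftmost positions, near −3.3, are libraries with 0 CPM.

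Genes of tendon were the largest listed group among the 94 lower genes. All 16 tendon genes were measured and all 16 were lower in psoas than in EDL, beside 1.57% of all genes. Of the 16, 11 were lower than in soleus (2.99% of all genes), and the same 11 met the rule (0.583% of all genes). The median log2 difference of the 16 was −4.74 against EDL, −2.88 against soleus and −3.52 against the leg mean, beside −0.00 for all genes. The 11 were Scx, Tnmd, Mkx, Fmod, Comp, Cilp, Cilp2, Col11a1, Col12a1, Chad and Angptl7. Summed over the 16 genes, psoas had 58.6, 112 and 75.9 CPM, EDL 1407, 1437 and 1144, and soleus 466, 772, 241 and 495. The study itself singled out 6 of the 16 from these libraries, so the list is not independent evidence of its direction. In bulk RNA, fewer cells of a type and less RNA per cell cannot be told apart, and how much tendon each dissection took along was not tested.

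Comp, a cartilage and tendon matrix protein, had 0.449, 1.46 and 2.20 CPM in psoas, 29.4, 31.3 and 41.9 in EDL and 21.6, 41.0, 27.7 and 18.4 in soleus. It was 25.0-fold below EDL (log2 −4.77 ± 0.50, adjusted p = 0.00084) and 19.9-fold below soleus (log2 −4.44 ± 0.48, adjusted p = 0.00022). Tnmd, a marker of mature tendon cells, had 1.42, 5.96 and 4.18 CPM in psoas, 145, 104 and 111 in EDL and 41.7, 84.8, 10.4 and 49.1 in soleus. The lowest soleus library, replicate 3, was still above every psoas library. Scx, the transcription factor that marks tendon precursors, had 1.16, 1.52 and 1.84 CPM in psoas against 7.33 to 10.2 in EDL and 3.67 to 15.4 in soleus. Mkx, another tendon transcription factor, had 0.396 to 1.39 CPM against 10.3 to 14.4 and 1.91 to 9.60.

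The matrix genes varied widely within soleus. Col11a1, a fibrillar collagen chain, had 1.16, 1.39 and 2.90 CPM in psoas, 86.0, 53.0 and 73.9 in EDL, and 27.0, 70.9, 3.51 and 39.2 in soleus. Cilp2, a matrix protein related to Cilp, had 0.369, 1.08 and 0.496 in psoas, 30.8 to 43.6 in EDL, and 15.1, 32.8, 2.39 and 12.1 in soleus. Soleus 3, the youngest and shallowest library, was lowest in both. Chad, which binds collagen, had 0.158, 0.761 and 0.283 CPM in psoas, 8.95 to 10.5 in EDL and 2.67 to 7.87 in soleus, and Fmod, which shapes collagen fibrils, 3.77 to 8.36, 91.2 to 138 and 16.5 to 88.1.

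The number of tendon genes that met the rule was 14 without soleus 3, 7 without soleus 4, 7 without EDL 1, 6 without psoas 2 and 4 without psoas 1 or psoas 3. It was also 4 with read trimming as a covariate, 3 in the test against a fold change of 2 and 6 with limma-voom. Comp, Chad, Cilp and Angptl7 passed without any one library. The sum for 12 muscle fibroblast genes was 719 to 1070 CPM in psoas, 1907 to 2988 in EDL and 1105 to 1522 in soleus. Of those 12, 2 were below the leg mean (1.86% of all genes) and 3 below EDL (1.57% of all genes). Against soleus none was called by edgeR or limma-voom, 1 was by DESeq2 and 5 had an unadjusted p under 0.05. The part of these cells in the tendon result was not tested.

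**Figure D5:**
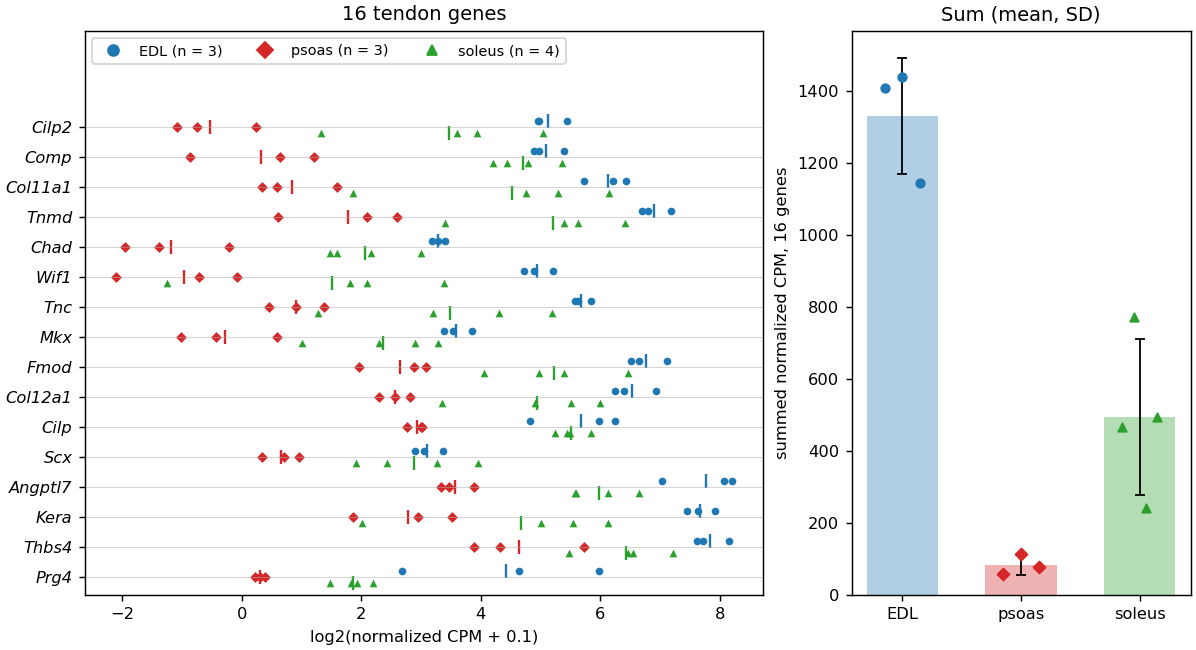
Left, level of each of 16 tendon genes per library as log2(normalized CPM + 0.1) on the x axis, with ticks at the mean of the log2 values; right, their summed normalized CPM per library on the y axis, with bars at the mean and error bars of 1 SD for EDL (n = 3), psoas (n = 3) and soleus (n = 4). The psoas sums of 58.6 to 112 lie below the lowest soleus sum of 241.

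The other named genes among the 94 had varied roles. Ankrd1, a stretch-responsive protein of the titin I-band, had 1.27, 1.52 and 0.637 CPM in psoas, 40.4, 54.3 and 40.3 in EDL and 8.28, 7.03, 35.6 and 12.5 in soleus. Its log2 fold change was −5.27 ± 0.63 against EDL (adjusted p = 0.0014) and −3.75 ± 0.59 against soleus (adjusted p = 0.0018), lost without psoas 1 or psoas 2. It was the 1 member among 10 measured developmental and denervation genes, beside 0.583% of all genes that were lower. Fgf7, a growth factor made by fibroblasts, was the 1 member among 42 measured secreted patterning signals (0.583% of all genes). It had 1.13, 0.697 and 0.637 CPM in psoas, 3.69 to 5.33 in EDL and 5.91 to 11.7 in soleus (adjusted p = 0.0036 and 0.00026), a call lost without EDL 1 or 2 or psoas 2 or 3.

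Of 15 collagen genes, 1 met the rule, Col8a1, beside 0.583% of all genes that were lower. It had 2.22 to 4.17 CPM in psoas against 14 to 24.9 and 5.74 to 19.7. The call was lost with limma-voom and kept in 2 of the 10 fits without a library. Its partner chain Col8a2, which stands in no list, had 0.501 to 1.91 CPM in psoas against 16.4 to 26.2 and 5.02 to 25.7. Both chains of collagen VIII were therefore among the 94. Prph, an intermediate filament of peripheral neurons, had 4 psoas reads in all against 323 in EDL, a ratio of EDL to psoas of 48.0 (95% counting interval 18.6 to 177), and soleus to psoas was 34.5 (13.2 to 128). It was 1 of 3 measured genes of 10 in the list for neurons and axons. None of the 9 measured Schwann cell and myelin genes was called against either leg muscle by edgeR, DESeq2 or limma-voom, with an unadjusted p under 0.05 in 1 gene against EDL and 2 against soleus.

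Spock3, a secreted proteoglycan, had 0.106 to 0.212 CPM in psoas against 3.13 to 5.77 in EDL and 0.399 to 6.46 in soleus. Zfp185, an actin-associated LIM protein, had 0.290 to 0.425 CPM against 6.45 to 10.8 and 1.52 to 12.3. Aldh1b1, a mitochondrial aldehyde dehydrogenase, had 2 psoas reads in all and 0.622 to 0.817 CPM in EDL and 2.33 to 3.08 in soleus. Cyp2f2, a cytochrome P450, also had 2 psoas reads, against 0.659 to 0.905 and 0.422 to 1.78 CPM. Of the 14 lower genes named by size, Hoxa13, Hoxa11, Comp and Chad kept their call without any one library, and the other 10 kept it in 3 to 8 of the 10 such fits. Hoxa13, Hoxa11, Prph, Spock3, Aldh1b1 and Cyp2f2 had no psoas library at 10 counts. They entered the table through the leg libraries alone, so their calls are given as a description. With limma-voom 7 of the 14 were not called, namely Prph, Cilp2, Cyp2f2, Spock3, Col11a1, Aldh1b1 and Zfp185. The ratio of soleus to psoas was 89.1 for Aldh1b1 (24.4 to 740) and 37.1 for Cyp2f2 (9.96 to 311).

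Several further members, picked after their values were seen, stand outside the matrix. Dio2, which activates thyroid hormone, had 1.42, 1.14 and 1.27 CPM in psoas, 9.13, 7.65 and 7.80 in EDL and 4.24, 7.12, 6.06 and 7.55 in soleus. Its log2 fold change was −2.66 ± 0.26 against EDL (adjusted p = 0.00068) and −2.27 ± 0.25 against soleus (adjusted p = 0.00022), and the call was kept without any one library. The next 3 genes encode enzymes of energy metabolism and were likewise picked by their values, with no list behind them. Pygb, the brain form of glycogen phosphorylase, had 5.59, 3.99 and 4.81 CPM in psoas against 13.9 to 18.3 and 13.4 to 19.3. Ckb, the brain form of creatine kinase, had 2.35 to 2.79 CPM against 8.71 to 10.3 and 6.70 to 12.9. Pfkp, the platelet form of phosphofructokinase, had 3.23 to 3.35 CPM against 6.32 to 11.2 and 5.80 to 7.53, a call kept in 1 of the 10 fits without a library.

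Receptors among the 94 included Lepr for leptin, with 2.30 to 2.83 CPM in psoas against 9.45 to 14.4 in EDL and 4.86 to 8.93 in soleus. Tlr4, the receptor for lipopolysaccharide, had 5.20 to 6.60 CPM against 11.3 to 20.9 and 17.7 to 29.0. Smo, which carries the Hedgehog signal, had 2.41 to 3.56 CPM against 7.95 to 9.83 and 5.74 to 10.7. For these receptors and enzymes each psoas library lay below each leg library, as in all 94 lower genes, which follows largely from the rule itself. The 10 macrophage genes summed to 55.0 to 146 CPM in psoas, 131 to 349 in EDL and 107 to 167 in soleus, and the part of such cells in the Tlr4 result was not tested.

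The genes of fiber type that were listed separated psoas from soleus more than from EDL. Of 13 slow sarcomere and calcium genes, all 13 were lower in psoas than in soleus (2.99% of all genes) and 10 were below the leg mean (1.86%). Against EDL none of the 13 was called by edgeR's test, 5 were called by DESeq2 and 1 by limma-voom, and 8 had an unadjusted p under 0.05. Their median log2 difference was −7.99 against soleus and −1.56 against EDL. Of 16 fast genes, 11 were higher in psoas than in soleus (2.71% of all genes). Against EDL none of the 16 was called by edgeR, DESeq2 or limma-voom and 4 had an unadjusted p under 0.05. Of 16 glycolysis genes, 13 were higher than in soleus (2.71% of all genes). Against EDL none of the 16 was called by edgeR, 1 by DESeq2 and none by limma-voom, and 10 had an unadjusted p under 0.05. None of these 45 genes met the rule by edgeR's test, although up to 6 slow genes met it under another setting and up to 2 fast and 2 glycolysis genes met it without 1 library.

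The size of the differences within subsets of the libraries is given as values with no test. Among libraries whose reads were trimmed, 2 of psoas and 2 of EDL, the median log2 ratio was 1.90 for the 19 genes and −2.38 for the 94. In untrimmed libraries, psoas 3 against EDL 3 gave 1.38 and −2.27, and psoas 3 against the 4 soleus libraries 1.65 and −1.95. Within 1 animal, psoas 1 against soleus 1 gave 1.78 and −1.83, and psoas 3 against soleus 4 gave 1.55 and −1.99. The reads of psoas 1 were trimmed and those of soleus 1 were not. The members were chosen with these libraries included, so their signs are fixed by that choice.

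Promoters are shown for 5 members because they span the absent Hox genes, the tendon genes and Rxfp2. RefSeq (GRCm38.p6) gave the 250 bases upstream of the start for 15 of the 19 higher and 63 of the 94 lower genes. Capitals mark 2 motifs, read on both strands: the E-box CANNTG, bound by basic helix-loop-helix factors such as Scx and myogenic factors, and TTTATNG, a form of the site that posterior Hox proteins prefer.
Hoxa13, chr6:52260881-52261130, minus strand: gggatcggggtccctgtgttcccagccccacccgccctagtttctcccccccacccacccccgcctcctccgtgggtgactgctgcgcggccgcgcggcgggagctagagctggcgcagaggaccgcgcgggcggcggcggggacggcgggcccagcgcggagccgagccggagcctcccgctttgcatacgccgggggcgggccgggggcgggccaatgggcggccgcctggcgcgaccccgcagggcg
Hoxa11, chr6:52245811-52246060, minus strand: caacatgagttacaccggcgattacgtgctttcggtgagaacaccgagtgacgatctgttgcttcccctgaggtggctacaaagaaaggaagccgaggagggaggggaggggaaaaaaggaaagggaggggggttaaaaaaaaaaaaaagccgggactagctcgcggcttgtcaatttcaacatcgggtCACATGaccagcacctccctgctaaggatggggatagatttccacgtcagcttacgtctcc
Chad, chr11:94564797-94565046, plus strand: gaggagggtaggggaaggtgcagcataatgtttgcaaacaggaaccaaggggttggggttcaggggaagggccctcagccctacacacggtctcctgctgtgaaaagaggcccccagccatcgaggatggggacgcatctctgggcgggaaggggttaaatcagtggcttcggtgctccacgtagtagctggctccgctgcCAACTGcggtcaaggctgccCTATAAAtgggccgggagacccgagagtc
Fmod, chr1:134037004-134037253, plus strand: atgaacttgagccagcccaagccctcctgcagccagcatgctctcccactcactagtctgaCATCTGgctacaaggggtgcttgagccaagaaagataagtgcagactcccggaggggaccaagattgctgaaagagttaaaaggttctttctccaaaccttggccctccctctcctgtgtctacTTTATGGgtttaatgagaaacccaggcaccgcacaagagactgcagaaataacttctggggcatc
Rxfp2, chr5:150018425-150018674, plus strand: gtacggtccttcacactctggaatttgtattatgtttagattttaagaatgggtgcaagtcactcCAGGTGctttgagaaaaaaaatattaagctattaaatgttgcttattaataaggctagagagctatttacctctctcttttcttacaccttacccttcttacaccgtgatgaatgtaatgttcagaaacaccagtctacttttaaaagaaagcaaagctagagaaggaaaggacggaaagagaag

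The Hoxa13 window is rich in G and C and holds neither motif, and the Hoxa11 and Rxfp2 windows hold 1 E-box each. The window of Hoxa11 overlaps exons of Hoxa11os. Chad and Fmod hold 1 E-box and 1 TTTATNG each, and in Chad the latter overlaps a TATA box, TATAAA. Over the 10706 promoters of measured genes, 57.7% held an E-box, 6.46% TTTATNG and 6.81% TATAAA. Among the 63 lower genes the shares were 60.3% (38 genes), 19.0% (12 genes) and 14.3% (9 genes). Of the 12 with TTTATNG, 7 also held TATAAA, which shares letters with it, and the median GC content was 55.6% in the 63 windows against 59.6% in all. Among the 15 higher genes, 11 held an E-box (73.3%), 1 held TTTATNG (6.67%) and 2 held TATAAA (13.3%). A match describes the letters of these windows and not binding.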

How the data were processed

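RNA from EDL, psoas and soleus was sequenced by the authors as stranded total RNA depleted of ribosomal and globin RNA. Per the labels and the study's methods, reads were checked with FastQC, those of EDL 1 and 2 and psoas 1 and 2 were trimmed with Trimmomatic 0.32, and all were aligned to the mouse genome (GRCm38.p4, mm10) with TopHat2 2.1.1. The deposited values are raw read counts per gene for each library, which the authors counted with GenomicFeatures and GenomicAlignments. The strand setting and the sequencing run of each library are not given in the sources used here. Every one of the 16112 genes had at least 10 counts in at least 3 libraries, the authors' filter. Symbols came from GENCODE M21 (16032 genes).

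Counts were normalized by TMM and fitted over all 10 libraries with edgeR 4.0.16 in R 4.3.3 (quasi-likelihood test, 1 mean per muscle, contrasts of psoas with EDL, with soleus and with their equally weighted mean, no covariate). A gene was called at a fold change over 2 with a Benjamini-Hochberg adjusted p under 0.01. A level of 0 was bounded by 3 counts per library. Genes with few reads were given a ratio of counts with an exact conditional 95% interval. The replicates are separate libraries, some from 1 animal, so p-values measure the spread between libraries. No pair of replicates agreed within sampling noise. The scripts were tested on simulated data.

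Named genes were the 14 higher and 14 lower with the largest smaller fold change, an ordinary symbol, no overlap between psoas and leg libraries and a mean of 1 CPM or more where they are higher, then Hox and other position factors that met the rule, Tbx4, Pitx1, Sim1 and Sim2 in any case, up to 3 members of each other list, and sex-linked genes. Members, lists and rules were chosen with earlier results of these data known. Alternatives were DESeq2 1.42.0, limma-voom (limma 3.58.1), a test against a fold change of 2, other normalizations, filters and thresholds, covariates for trimming, for 3 handling groups (trimmed, untrimmed at 44 days, other untrimmed), for low mapping, for sex (without soleus 3, whose sex is not given) and for age, thinned counts, a replicate block, the animal as a random effect, pooled leg libraries and leaving out each library.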

Additional observations from a re-analysis of the deposited data

Results flagged for a closer look

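Fgf7 in soleus was the 1 value of 33 tested in the 4 soleus libraries that lay far from the rest. Soleus 3 had 11.7 CPM and the other 3 libraries 5.91 to 6.09, a gap of 0.969 of the whole range, above Dixon's 95% critical value. Chance gives such a value in about 1 of 20 groups. The psoas libraries, at 0.637 to 1.13 CPM, were below all 4.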

How the results depend on the processing

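The 113 genes became 339 with DESeq2 (111 shared), 402 at an adjusted p under 0.05, 242 with sex as a covariate and soleus 3 left out (159 without soleus 3 alone), 60 with age, 59 with thinned counts, 9 in edgeR's test against a fold change of 2, and 26 to 183 without 1 library. The 592 genes against the leg mean became 993 with DESeq2, 33 against a fold change of 2, 1119 at an adjusted p under 0.05, 18 with the leg libraries pooled, 387 with age, and 166 to 684 without 1 library. The 340 against EDL became 1095, 27 and 1233 in the first 3 of these, 605 with trimming, 757 with the 3 handling groups, 865 with sex and without soleus 3 (455 without soleus 3 alone), 187 with age, 178 with thinned counts, and 61 to 963 without 1 library. The 917 against soleus became 1382, 176 and 1563, then 566 with trimming, 475 with the handling groups, 515 with age, and 493 to 964 without 1 library. Shared replicate numbers do not pair the libraries (same-number correlations of deviations from −0.23 to 0.50). With a replicate block, the counts were 40 (34 shared), 313 against the leg mean, 146 against EDL and 539 against soleus, 6 tendon genes met the rule, and 11 of the 14 higher and 8 of the 14 lower named genes lost their call. The difference in posterior Hox share was −20.8 points for groups 10 to 13 and −14.9 to −11.8 without 1 library. Of the named genes' values, Tbx4 against the leg mean went from −0.28 to 0.15 with thinned counts and Sim2 from 1.86 to −1.59 with the leg libraries pooled, none of them called. Under the alternatives 613 values of named genes kept their direction and side of the threshold, 300 kept the direction but lost the call and 3 gained it. The cause of these shifts was not tested. No same-direction count exists with the leg libraries pooled, since that fit has no separate muscles.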

Other observations

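Of the 42 measured secreted patterning signals, 8 differed between psoas and the leg mean, beside 3.67% of all genes. Of the 8, 7 did not meet the rule for each leg muscle. Their names follow from the values. Chrdl1, a BMP antagonist, had 1.27 to 2.90 CPM in psoas, 16.3 to 18.4 in EDL and 4.24 to 7.15 in soleus (edgeR's quasi-likelihood test, Benjamini-Hochberg adjusted p = 0.00083 against EDL and 0.012 against soleus). Bmp3, a BMP family member, had 0.444 to 0.792 CPM in psoas, 7.97 to 10.4 in EDL and 1.28 to 3.11 in soleus. Gdf10, a relative of Bmp3, had 0.317 to 1.06 CPM in psoas, 2.42 to 5 in EDL and 1.64 to 4.24 in soleus, just outside the threshold on both sides (adjusted p = 0.013 and 0.013). For these 3 genes each psoas library was below each leg library. That held for 7 of the 42 listed genes and for 5.6% of all genes.

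Rspo3, which strengthens Wnt signalling, separated soleus from the rest, with 13.5 to 27.5 CPM there, 1.47 to 1.70 in EDL and 0.254 to 0.991 in psoas. Ighm, the heavy chain of immunoglobulin M, is 1 of 4 measured lymphocyte genes. It had 84.0, 63.7 and 14.4 CPM in psoas, 6.21 to 10.9 in EDL and 1.69 to 6.78 in soleus (edgeR's adjusted p = 0.017 and 0.0010). Of the 4 genes, only Ighm was called higher than in soleus (2.71% of all genes), and none was called against EDL. Log2 differences of the 4 from the leg mean ran from −0.43 to 3.32, so the list did not move as 1.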
